A study of Mus musculus with 21 samples.

Results

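Genes that are used as markers of fibroblasts, endothelial cells and mural cells were followed through sorted mouse macrophages and monocytes. The genes were taken by symbol from a given list of 34, and all of them were found among the 27179 gene IDs of the table. They comprise 12 fibroblast genes, 12 endothelial genes and 10 mural genes. The cells were sorted from C57BL/6 mice with no transgene or deletion named in the labels. R1 is the Ccr2-negative, MHC-II-low population of cardiac macrophages, R2 the Ccr2-negative, MHC-II-high population and R3 the Ccr2-positive, MHC-II-high population. Each was taken from naive hearts and from hearts of mice challenged with CAWS, a water-soluble extract of *Candida albicans* that gives mice an arteritis used as a model of Kawasaki disease. Ccr2-positive splenic monocytes of naive mice made the seventh group. Each of the 7 groups had 3 libraries, every library came from a pool of mice, and each pool of cardiac macrophages was divided into the 3 populations. The sources used here do not give age, sex, dose or time after CAWS.

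Heart tissue is built from muscle cells, fibroblasts, endothelial cells and mural cells, with macrophages lying among them. Fibroblasts lay down the collagen matrix, endothelial cells line the vessels, and mural cells (smooth muscle cells and pericytes) wrap the vessel wall and contract. Such genes are not markers of macrophages as a rule, although some of them, such as the actin-severing protein gelsolin and the TGF-beta co-receptor endoglin, are also known from macrophages. Their RNA in a sorted library can come from the sorted cells themselves or from other cells and free RNA carried through the sort, and the counts do not separate these sources. In bulk RNA, fewer cells of a type and less RNA per cell cannot be told apart either.

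The sequences below are shown because reads of Ly6c1, which marks capillary endothelium, can be confused with those of Ly6c2, a surface protein of inflammatory monocytes. These are the first 120 coding bases of each gene's longest open reading frame in the GENCODE M21 transcripts, with the bases that differ in capitals.
Ly6c1: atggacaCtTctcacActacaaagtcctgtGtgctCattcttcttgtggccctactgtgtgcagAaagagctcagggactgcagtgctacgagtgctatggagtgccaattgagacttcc
Ly6c2: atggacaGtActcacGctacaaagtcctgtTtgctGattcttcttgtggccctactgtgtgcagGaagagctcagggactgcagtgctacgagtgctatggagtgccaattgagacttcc
The stretches differ at 6 positions. The open reading frames were 444 bases long for Ly6c1 and 396 for Ly6c2. Compared position by position without an alignment, 85.1% of the first 396 bases were identical. An aligned identity of the genes was not computed and may be higher. Of the 50-base windows of the Ly6c1 transcripts, 32.8% also occurred in another gene's transcripts, 21.5% in those of Ly6c2. For each of the other members the share was at most 4.94%.

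Library totals lay between 12800136 and 23006155 counts (median 16763449). Levels are given in CPM, counts scaled to a common library total, with library sizes adjusted by TMM scaling. The macrophage genes Adgre1 (F4/80) and Csf1r (the M-CSF receptor) were present throughout, Csf1r at a mean of 4500 to 8130 CPM in the 6 cardiac groups. Of the 34 genes, Gsn and Eng had medians of 481 and 117 CPM over the 18 cardiac libraries, and each of the others a median under 10 CPM. Tests were made with edgeR's quasi-likelihood method over 13275 genes with Benjamini-Hochberg adjustment at 0.05, and 31 of the 34 genes had enough counts to enter them. The 3 left out were the endothelial sialomucin Emcn, the pericyte potassium channel subunit Kcnj8 and the adhesive glycoprotein Vtn. Emcn and Kcnj8 were at 0 counts in 6 of 18 cardiac libraries each, and Vtn in 12.

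On a scale per transcript length (RPKM), Gsn and Eng stood far above the rest over the 18 cardiac libraries. Gsn, which encodes gelsolin, had a median of 164 RPKM, and Eng, which encodes endoglin, 32.8. Next came Fabp4, the fatty acid carrier of capillary endothelium and of macrophages, at 15.1. Acta2 had a median of 5.57, the smooth muscle protein gene Tagln 4.44, the calcification inhibitor Mgp 4.22 and the proteoglycan gene Dcn (decorin) 3.76. The lowest of the tested genes was Pdgfra, the PDGF receptor of fibroblasts, at 0.097.

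Before any comparison, 1 library has to be described. Naive R3 replicate 2 stood apart from the other naive R3 libraries in its fibroblast genes. The 11 fibroblast genes other than Gsn summed to 286 CPM there, against 24.4 in replicate 1 and 32.0 in replicate 3. In the other cardiac groups the sum ran from 16.2 to 42.8 CPM over 15 libraries, and in the monocytes from 1.12 to 2.12. The mural genes summed to 145 CPM in this library, against 65.4 and 24.4. The 9 endothelial genes other than Eng, Flt1 and Ly6c1 summed to 47.2 CPM, against 32.3 and 26.3, a smaller gap than in the other sets.

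**Figure D1:**
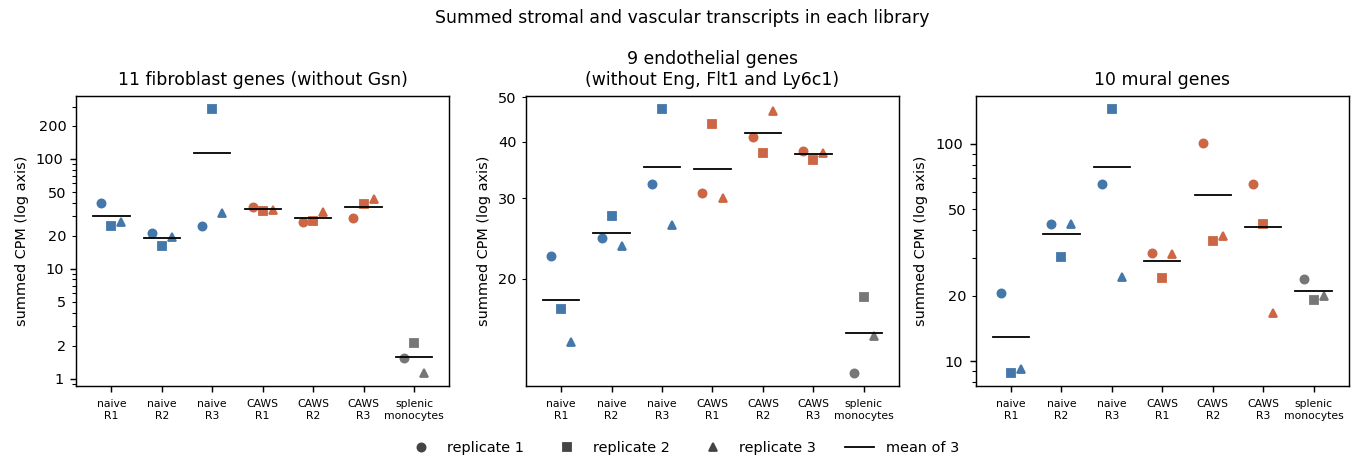
Summed CPM (log axis) in each of the 21 libraries, with 1 point per replicate and a line at the mean of 3. Panels hold 11 fibroblast genes (without Gsn), 9 endothelial genes (without Eng, Flt1 and Ly6c1) and 10 mural genes. Naive R3 replicate 2 is the top point of the fibroblast panel at 286 CPM and of the mural panel at 145 CPM, and the monocytes lie at the bottom of the fibroblast panel.

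The collagen gene Col1a1 (gene ID 12842, chromosome 11, 94936224 to 94953042 of GRCm38.p6) was at 1.39, 55.1 and 3.51 CPM in naive R3 replicates 1, 2 and 3. Dcn (gene ID 13179, chromosome 10, 97479500 to 97518163) was at 5.10, 84.2 and 6.35 CPM. Mgp was at 3.01, 37.1 and 2.12 CPM, and Col1a2 at 3.71, 40.5 and 2.05. In each case replicate 2 alone was high. With 0.5 CPM added to both sides, replicate 2 stood over the mean of the other libraries by 18.9 times for Col1a1, 13.6 times for Dcn, 12.3 times for Mgp, 12.1 times for Col1a2, 8.16 times for Lum (the matrix proteoglycan lumican) and 5.69 times for Sparc (a matrix protein that binds collagen). Among all tested genes, Col1a1 ranked 5th, Dcn 7th, Mgp 8th and Col1a2 9th by this ratio. Of the 12 fibroblast genes 6 were at least 5 times higher, of the 11 tested endothelial genes 0 and of the 8 tested mural genes 0, against 0.279% of all tested genes. This library held the highest value of all 21 for 19 of the 34 genes (55.9%), against 4.75% of all tested genes.

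**Figure D2:**
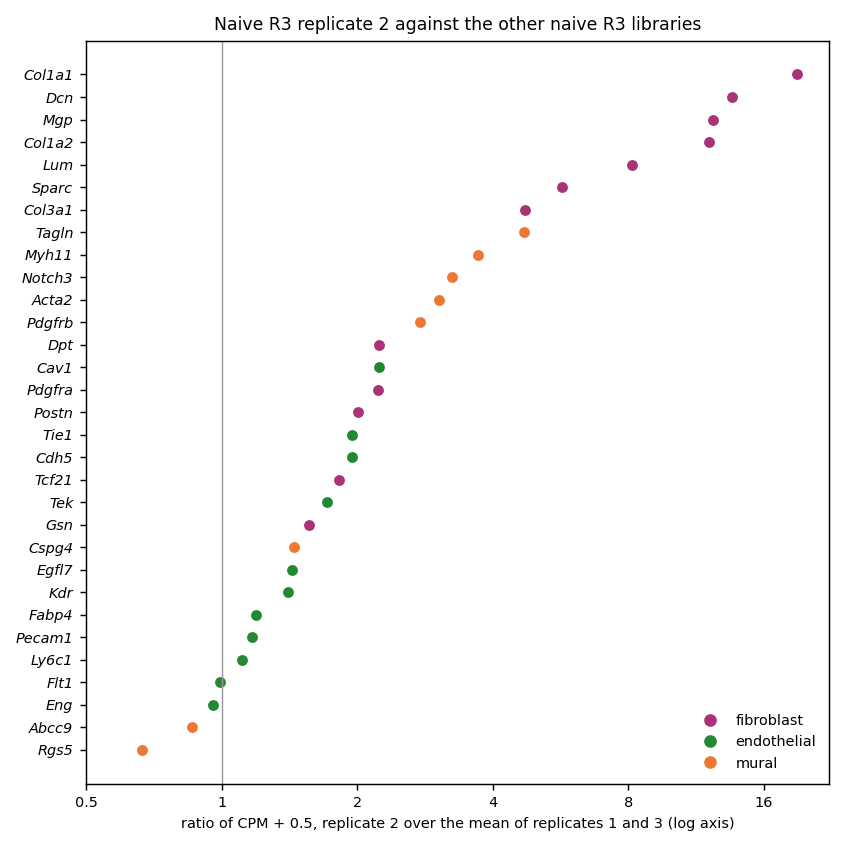
Ratio of CPM in naive R3 replicate 2 to the mean of replicates 1 and 3, with 0.5 CPM added to both (log axis), for the 31 tested genes coloured by set. Fibroblast genes lead, from 18.9 for Col1a1, 4 mural genes (Tagln, Myh11, Notch3, Acta2) lie between 3.04 and 4.70, and Rgs5 is lowest at 0.667.

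The mural genes ranged more widely in this library. Tagln was 4.70 times, Myh11 (smooth muscle myosin) 3.71 times, Notch3 (a receptor of vascular smooth muscle) 3.24 times and Acta2 3.04 times the level of the other libraries. Among the genes of pericytes, Pdgfrb (the PDGF receptor of mural cells) was at 2.75 times and the proteoglycan gene Cspg4 at 1.45 times. Rgs5, a G protein regulator of pericytes, was at 0.667 times and Abcc9, a pericyte channel subunit, at 0.86 times. A wider list of 35 fibroblast and matrix genes had its highest value of the 21 libraries here for 21 genes (60.0%), a wider list of 20 mural genes for 10 and a wider list of 30 endothelial genes for 12 (40.0%). The sum of the wider fibroblast list was 1360 CPM here, against 1010 and 1170 in the others of its group. It was higher in naive R1 (1530 to 1600 CPM) and naive R2 (1430 to 1580 CPM). The 20 cardiomyocyte genes did not follow. They summed to 249 CPM in this library against 282 and 239 in the others of its group, and 2 of the 20 had their highest value here. The naive R1 and R2 libraries of the same replicate number were not raised either, with fibroblast sums of 24.6 and 16.2 CPM. That number was read as the pool, which no label states. The origin of the high values in this library was not tested, and the main results that rest on it are also given without it.

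In CAWS hearts, 2 other libraries were high in smooth muscle genes. Acta2 (gene ID 11475, chromosome 19, 34240336 to 34255585) was at 37.8, 12.9 and 10.1 CPM in CAWS R2 replicates 1 to 3. Myh11 was at 32.0, 6.45 and 8.02 CPM, and Tagln at 22.4, 8.78 and 5.99. Replicate 1 was high in all 3 genes. The pericyte genes Rgs5 (1.79, 1.79 and 3.53 CPM) and Pdgfrb (1.72, 1.73 and 2.75) were not high in replicate 1, nor was the fibroblast sum (26.4, 27.4 and 33.1). The cardiomyocyte sum of that library was 311 CPM against 223 and 262, and 6 of its 20 genes had their highest value of the 21 libraries there; its part in the smooth muscle values was not tested. CAWS R3 replicate 1, which carries the same replicate number, had Myh11 at 21.2 CPM against 8.46 and 3.80, and Acta2 at 22.7 against 14.1 and 4.0. Its cardiomyocyte sum was the lowest of its group, at 158 CPM against 206 and 207. The R1 library of that number was within its group, with Acta2 at 9.78, 9.40 and 8.84 CPM in CAWS R1.

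**Figure D3:**
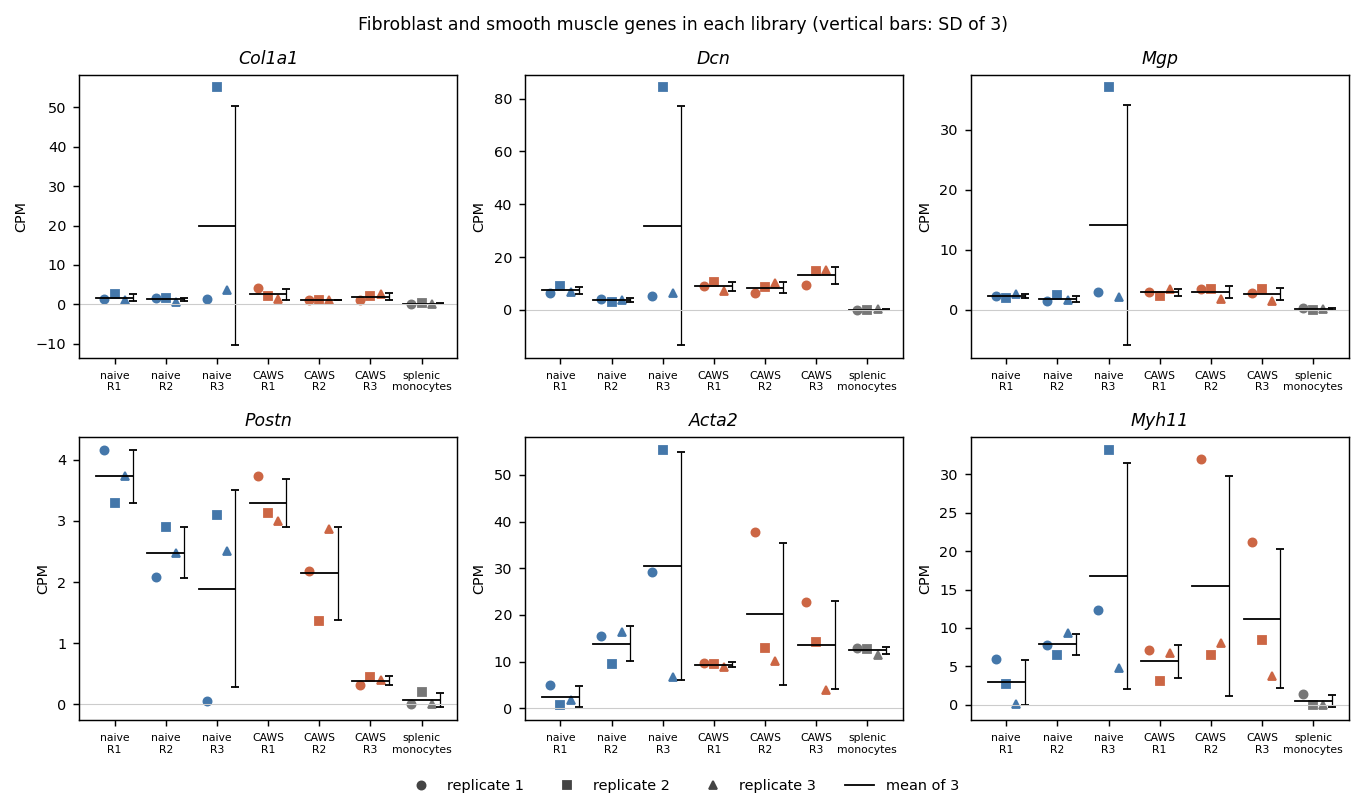
CPM of 3 fibroblast genes (Col1a1, Dcn, Mgp), Postn and 2 smooth muscle genes (Acta2, Myh11) in each of the 21 libraries, with the mean and SD of 3. Naive R3 replicate 2 is the single high point for Col1a1, Dcn and Mgp, whereas Acta2 and Myh11 are also high in CAWS R2 replicate 1 at 37.8 and 32.0 CPM.

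The comparison of cardiac macrophages with splenic monocytes asks which of these RNAs went with the heart. In naive R1, 16 of the 31 tested genes passed the test, 11 higher and 5 lower in the heart, where 63.3% of all tested genes passed (32.5% higher, 30.8% lower). In naive R2, 19 passed (15 higher, 4 lower) beside 63.6% of all genes (33.1% higher, 30.5% lower), and in naive R3, 27 passed (25 higher, 2 lower) beside 58.9% (31.9% higher, 27.1% lower). The fit without naive R3 replicate 2 gave 23 in R1 (17 higher, 6 lower) beside 62.9%, 26 in R2 (22 higher, 4 lower) beside 63.2% and 25 in R3 (22 higher, 3 lower) beside 54.3%, so the counts of R1 and R2 also depended on that library. The median log2 fold change of the members was 2.07 in R1, 3.00 in R2 and 4.08 in R3, and 2.06, 3.01 and 3.66 in the fit without it, and the median of all tested genes lay between 0.048 and 0.080 in the fits of all libraries. Organ and cell type change together here and cannot be told apart.

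Several fibroblast genes were at or near 0 counts in the monocytes. Dpt, a matrix protein of fibroblasts, had 0 counts in all 3 monocyte libraries, and 5.35, 1.24 and 4.47 CPM in naive R1. Against a floor of 3 counts over the monocyte libraries (0.0624 CPM), its mean was at least 59.1-fold higher in naive R1, at least 31.6-fold higher in R2 and at least 84.5-fold higher in R3 (at least 57.6-fold without naive R3 replicate 2). Lum was also at 0 in the monocytes, and was at least 12.9-fold, 9.69-fold and 32.6-fold higher in R1, R2 and R3. For R3 the bound was 3.98-fold without replicate 2, and the difference no longer passed (log2 fold change 5.12, adjusted p = 0.0616). In R1 and R2 Lum did not pass either (adjusted p = 0.0533 and 0.0806). The periostin gene Postn, a matrix protein of activated fibroblasts, was at 4.16, 3.29 and 3.74 CPM in naive R1 and at 0, 0.205 and 0 in the monocytes (log2 fold change 5.75 ± 0.89 SE, adjusted p = 4.08e-06). The groups did not overlap. Tcf21, a transcription factor of fibroblasts, was at 0.193, 0.478 and 0 CPM in the monocytes and 0.445, 0 and 0 in naive R1, so those groups overlapped.

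Gsn was abundant in the monocytes as well. It was at 393, 401 and 340 CPM in the monocytes and at 333, 316 and 301 CPM in naive R1, and the difference did not pass the test (-0.25 ± 0.13, adjusted p = 0.0981). In naive R3 it was at 568, 806 and 466 CPM, above the monocytes (log2 fold change 0.70 ± 0.13, adjusted p = 0.00011, and 0.45 ± 0.11, adjusted p = 0.0012, without replicate 2). Eng was at 104, 117 and 117 CPM in naive R1, with means of 101 to 123 CPM in the 6 cardiac groups and 27.5, 23.1 and 30.0 CPM in the monocytes. Its log2 fold change over the monocytes was 2.07 ± 0.11 in R1, 1.90 ± 0.11 in R2 and 2.16 ± 0.11 in R3 (adjusted p = 1.71e-13, 6.45e-13 and 1.26e-13). Without naive R3 replicate 2 the value for R3 was 2.18 ± 0.12 (adjusted p = 1.7e-12). Every cardiac library was above every monocyte library. Exons of Eng overlap those of Fpgs on the opposite strand. The strand setting of the counting is not known here, so reads of the partner may be included. The same holds for Tagln (Pcsk7 and Gm48529), Notch3 (Gm17276), Abcc9 (5330439B14Rik) and Pdgfra (Gm42802). On the same strand, Egfl7 overlaps Gm20532, Col3a1 overlaps Gm47302 and Pdgfra overlaps Mir7025, and their counts are uncertain to that extent.

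Of the tested genes 5 were higher in the monocytes than in naive R1. Flt1, which encodes the VEGF receptor VEGFR1 and is also known from monocytes, was at 126, 60.0 and 85.1 CPM in the monocytes and at 0.742, 1.49 and 0.868 CPM in naive R1 (-6.47 ± 0.31, adjusted p = 4.02e-14). It was lower than in the monocytes in naive R2 (-6.01 ± 0.28) and R3 (-4.64 ± 0.25, and -4.63 ± 0.31 without naive R3 replicate 2) as well. Its counterpart on endothelium, the receptor Kdr (VEGFR2), went the other way, at 2.06 ± 0.470 CPM (SD, n = 3) in naive R1 against 0.548 ± 0.252 (1.90 ± 0.48, adjusted p = 0.00157). The adhesion molecule Pecam1 (CD31), found on endothelium and on leukocytes, was at 6.75, 10.2 and 10.6 CPM in the monocytes and 3.07, 2.92 and 2.07 in naive R1 (-1.75 ± 0.37, adjusted p = 0.000309). Pdgfrb was at 4.37, 3.82 and 5.55 CPM in the monocytes and 0.891, 0.0621 and 0.401 in naive R1 (-3.23 ± 0.55, adjusted p = 2.26e-05). Acta2 was at 12.9, 12.7 and 11.5 CPM in the monocytes and 4.95, 0.621 and 1.74 in naive R1 (-2.25 ± 0.89, adjusted p = 0.0367). The call for Acta2 was lost without naive R1 replicate 2 or 3 (adjusted p = 0.11 and 0.0897), without any of the 3 monocyte libraries (0.0753, 0.0963 and 0.069) and with no filter on low counts (0.0584). Myh11, its partner in smooth muscle, was at 1.35, 0 and 0 CPM in the monocytes.

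Ly6c1 was the fifth, at 4.89, 7.23 and 5.10 CPM in the monocytes against 0, 0 and 1.27 in naive R1 (-3.91 ± 0.66, adjusted p = 2.11e-05). In the same monocytes Ly6c2, whose first coding bases are printed above, was at 863 ± 148 CPM (SD, n = 3), against 0.0744 ± 0.0656 in naive R1. How many Ly6c1 counts come from Ly6c2 reads was not tested, and the value for Ly6c1 is uncertain.

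Tie2, encoded by Tek, is the angiopoietin receptor of endothelium. Tek had 0 counts in the monocytes and was at least 10.2-fold higher in naive R1, at least 13.5-fold higher in R2 and at least 17-fold higher in R3 (at least 12.3-fold without naive R3 replicate 2). Its levels were low, at 0.841, 0 and 1.07 CPM in naive R1. Egfl7, a matrix protein secreted by endothelial cells, was at 5.84, 4.90 and 3.74 CPM in naive R1 and at 0, 0.136 and 0 in the monocytes (6.65 ± 0.70, adjusted p = 2.08e-08).

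**Figure D4:**
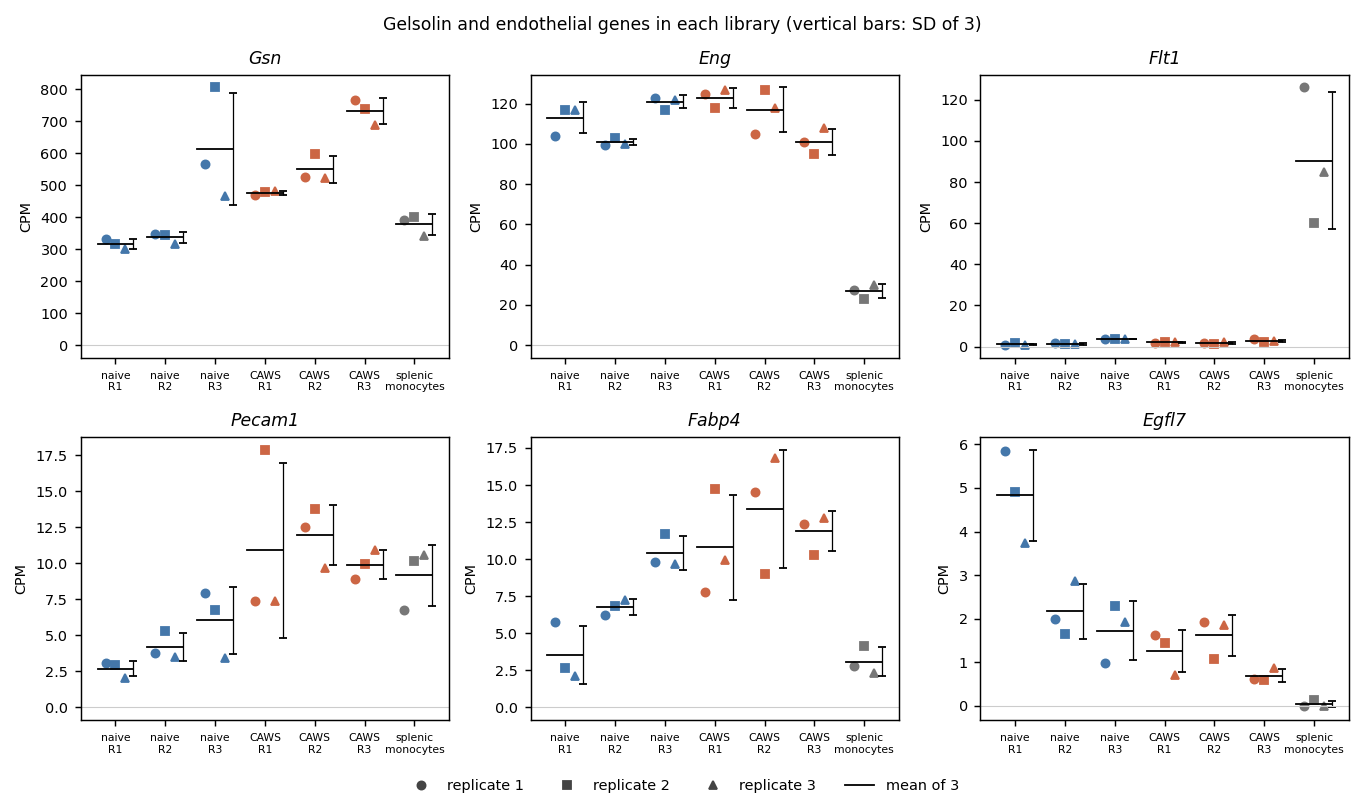
CPM of Gsn and of 5 endothelial genes (Eng, Flt1, Pecam1, Fabp4, Egfl7) in each of the 21 libraries, with the mean and SD of 3. Flt1 is high in the monocytes alone, at 60.0 to 126 CPM, Eng is at 94.9 CPM or more in all cardiac libraries, and Egfl7 is highest in naive R1 at a mean of 4.83 CPM.

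Among naive hearts, more of these genes were higher than lower in R3 against R1. Of the 31 genes 17 passed the test, 16 higher in R3 and 1 lower, and 23.2% of all tested genes passed in this comparison (12.5% higher, 10.7% lower). The members' median log2 fold change was 1.5, against 0.026 for all tested genes. Without naive R3 replicate 2 the count was 10 (8 higher, 2 lower), beside 17.8% of all genes, with a median of 0.51. The 5 fibroblast genes other than Gsn that had passed (Col1a1, Col1a2, Dcn, Mgp and Sparc) no longer did, and the fibroblast median went from 1.30 to -0.01. Col1a1 went from 3.59 ± 0.93 (adjusted p = 0.00808) to 0.51 ± 0.50 (adjusted p = 0.543). Dcn changed sign, from 2.13 ± 0.69 to -0.37 ± 0.30 (adjusted p = 0.458). With the pool as a replicate block, Dcn and Col1a2 did not pass (adjusted p = 0.107 and 0.111). Sparc was at 4.40, 25.4 and 3.71 CPM in naive R3 against 3.81, 1.43 and 1.54 in naive R1, so the groups overlapped.

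Of the 5 mural genes that passed, 4 also passed without that library, and Tagln did not (0.90 ± 0.60, adjusted p = 0.346). Leaving out any 1 of the 3 naive R1 libraries also ended the call for Tagln (adjusted p from 0.0725 to 0.0966), as did no filter on low counts (0.0681). Acta2 was at 29.2, 55.4 and 6.62 CPM in naive R3 and 4.95, 0.621 and 1.74 in naive R1, with no overlap (3.56 ± 0.81, adjusted p = 0.00427, and 2.80 ± 0.82, adjusted p = 0.026, without replicate 2). Acta2 did not pass in a fit of only the groups compared (adjusted p = 0.109), nor did Tagln (0.213). Pdgfrb was at 2.61, 6.01 and 1.12 CPM in naive R3 (2.76 ± 0.58, adjusted p = 0.00114, and 1.96 ± 0.56, adjusted p = 0.0181). Notch3 was at 4.52, 11.4 and 1.85 CPM in naive R3 against 1.29, 0.435 and 0.534 (2.92 ± 0.64, adjusted p = 0.00169, and 2.02 ± 0.62, adjusted p = 0.0254). Rgs5 was at 4.29, 1.95 and 2.05 CPM against 0.594, 0 and 0.868 (2.50 ± 0.66, adjusted p = 0.0064, and 2.71 ± 0.69, adjusted p = 0.00674). The call for Rgs5 was lost without naive R3 replicate 1 (2.02, adjusted p = 0.0609), the library with the highest value.

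The endothelial genes Cav1 (caveolin, abundant in vessel walls), Fabp4 and Flt1 were also higher in naive R3 than in naive R1 in both fits. Cav1 was at 5.50, 12.4 and 5.03 CPM in R3 against 2.67, 1.43 and 0.868 in R1 (2.14 ± 0.38, adjusted p = 0.000206, and 1.60 ± 0.36, adjusted p = 0.00278, without replicate 2). Pecam1 was at 7.93, 6.75 and 3.44 CPM in R3 against 3.07, 2.92 and 2.07 in R1 (1.17 ± 0.39, adjusted p = 0.0351, and 1.09 ± 0.44, adjusted p = 0.1). Its fold change was little altered, and its call was lost without any 1 of naive R1 replicates 1 to 3 or naive R3 replicate 1 as well (adjusted p from 0.063 to 0.158). The receptor gene Tie1 was at 0.637, 3.55 and 2.51 CPM against 0.0495, 0 and 1.27, and the groups overlapped (2.48 ± 0.73, adjusted p = 0.0147, and 1.94 ± 0.82, adjusted p = 0.114). The call for Tie1 was also lost without naive R1 replicate 1 or 2 (adjusted p = 0.0837 and 0.0644) and with only the groups compared (0.0688). Fabp4 was at 9.79, 11.7 and 9.66 CPM in R3 against 5.74, 2.67 and 2.14 in R1 (1.5 ± 0.31, adjusted p = 0.00108, and 1.41 ± 0.35, adjusted p = 0.00671, without replicate 2). Flt1 was at 3.65, 3.61 and 3.64 CPM in R3 against 0.742, 1.49 and 0.868 in R1 (1.83 ± 0.44, adjusted p = 0.00346, and 1.83 ± 0.48, adjusted p = 0.00933). The 3 R3 libraries were nearly equal and all above R1. Gsn was higher in R3 too (0.95 ± 0.13, adjusted p = 1.18e-05, and 0.71 ± 0.11, adjusted p = 5.23e-05).

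Egfl7 and Postn went the other way. Egfl7 (gene ID 353156, chromosome 2, 26581083 to 26592682) was at 5.84, 4.90 and 3.74 CPM in naive R1 and 0.984, 2.29 and 1.92 in naive R3, with no overlap (-1.5 ± 0.33, adjusted p = 0.00164, and -1.78 ± 0.39, adjusted p = 0.00236, without naive R3 replicate 2). Postn was at 4.16, 3.29 and 3.74 CPM in R1 and 0.0579, 3.09 and 2.51 in R3. Replicate 1 of R3 was far below the others, and the difference passed only in the fit without replicate 2 (-1.62 ± 0.51, adjusted p = 0.029).

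Cardiomyocyte RNA moved in the same direction as the vascular genes in these comparisons. The 20 cardiomyocyte genes summed to 152, 121 and 117 CPM in naive R1, 292, 221 and 238 in R2 and 282, 249 and 239 in R3. Of the 20, 13 were higher in R3 than in R1 and 0 lower, and 12 and 0 without naive R3 replicate 2. In a wider list of mural genes 12 of 17 tested were higher and 1 lower, and 5 and 1 without replicate 2. In the wider endothelial list 8 of 23 were higher and 2 lower, and 5 and 2 of 25 without it. The wider fibroblast list had 15 of 34 higher and 1 lower, and 3 and 1 without it. Of all tested genes 12.5% were higher and 10.7% lower. In the fit without naive R3 replicate 2, 17.8% of all genes passed in either direction. The part of carried-over heart tissue in these differences was not tested.

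Between naive R2 and naive R1, 2 of the 31 genes passed, beside 7.13% of all tested genes. Egfl7 was lower in R2, at 1.99, 1.65 and 2.86 CPM (-1.15 ± 0.30, adjusted p = 0.0179). Cav1 was higher, at 4.74, 5.86 and 4.36 CPM against 2.67, 1.43 and 0.868 (1.5 ± 0.40, adjusted p = 0.0203). Neither group overlapped the other for these genes. The count was 0 without naive R2 replicate 1 or without naive R2 replicate 2. The call for Egfl7 was also lost without naive R1 replicate 1 (adjusted p = 0.103), in DESeq2 (0.0516) and in the older edgeR fit (0.148), and that for Cav1 without naive R1 replicate 2 or 3 (0.0821 and 0.113). Cardiomyocyte genes differed here as well, with 12 of 20 higher in R2, and their part was not tested.

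Between naive R3 and naive R2, 9 genes were higher in R3 and 0 lower, beside 12.4% of all tested genes (6.63% higher, 5.77% lower). Of the 9, 7 were fibroblast genes (Col1a1, Col1a2, Col3a1, Dcn, Mgp, Sparc and Gsn), with Flt1 and Cspg4 beside them. Col3a1 was at 3.36, 23.1 and 5.62 CPM in R3 against 3.03, 1.31 and 2.42 in R2, and Cspg4 at 2.20, 3.20 and 1.92 against 0.949, 0.682 and 0.837, with no overlap in either. The call for Cspg4 was also lost without any 1 of naive R2 replicates 1 to 3 or naive R3 replicate 1 (adjusted p from 0.0554 to 0.0913) and in the older edgeR fit (0.113). The call for Flt1 was lost without naive R2 replicate 2 or 3 or naive R3 replicate 1 (0.0589, 0.106 and 0.0575). Without naive R3 replicate 2 the count was 1, beside 8.53% of all genes. That gene was Gsn, at 568, 806 and 466 CPM in R3 against 349, 344 and 318 in R2 (0.86 ± 0.13, adjusted p = 8.81e-05, and 0.62 ± 0.11, adjusted p = 0.000533, without replicate 2). With the pool as a replicate block, Sparc (adjusted p = 0.0536) and 2 collagen genes (Col1a2 and Col3a1) did not pass. The same block added Rgs5 (1.13, adjusted p = 0.0471), Pdgfrb (1.24, adjusted p = 0.0232), Eng (0.26, adjusted p = 0.0215), Pdgfra (2.16, adjusted p = 0.0403) and the endothelial cadherin gene Cdh5 (0.92, adjusted p = 0.0394).

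The challenge with CAWS was compared with naive mice within each population. In R1, 5 of the 31 genes rose and 1 fell, and 8.94% of all tested genes passed (6.07% higher, 2.87% lower). Pecam1 (gene ID 18613, chromosome 11, 106654213 to 106715281) was at 7.42, 17.9 and 7.36 CPM after CAWS against 3.07, 2.92 and 2.07 in naive mice (1.98 ± 0.36, adjusted p = 0.00121). All CAWS libraries were above all naive ones, and replicate 2 was the highest. Fabp4 rose from 5.74, 2.67 and 2.14 CPM to 7.78, 14.7 and 9.95 (1.55 ± 0.31, adjusted p = 0.00277), and Cav1 from 2.67, 1.43 and 0.868 to 5.94, 3.83 and 5.48 (1.55 ± 0.40, adjusted p = 0.0168). Pdgfrb rose from 0.891, 0.0621 and 0.401 CPM to 2.58, 2.73 and 2.54 (2.41 ± 0.60, adjusted p = 0.0138). Gsn rose from 333, 316 and 301 CPM to 470, 480 and 481 (0.59 ± 0.13, adjusted p = 0.0071). Natural killer (NK) cell genes were higher in the same libraries, with 3 of 3 tested past the test. The 5 NK genes listed summed to 5.52, 20.9 and 5.94 CPM after CAWS against 1.19, 0.372 and 2.0, highest in replicate 2 as Pecam1 was. T cell genes summed to 2.05, 4.53 and 2.08 CPM against 0, 0.869 and 0.0668, and 1 of 2 tested passed. Their part in the values of Pecam1, which leukocytes also carry, was not tested.

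Egfl7 fell in R1, from 5.84, 4.90 and 3.74 CPM to 1.63, 1.45 and 0.711, with no overlap (-1.96 ± 0.34, adjusted p = 0.000795). Leaving out naive R1 replicate 2 or 3 ended the calls for Pdgfrb (adjusted p = 0.0682 and 0.0515) and Cav1 (0.0698 and 0.0859). Leaving out CAWS R1 replicate 1 or 3 also ended the call for Cav1 (adjusted p = 0.0629 and 0.0531). The collagens and smooth muscle genes did not pass in R1. Col1a1 was at 4.10, 2.15 and 1.27 CPM after CAWS against 1.44, 2.61 and 1.00, so the groups overlapped. Of the 20 cardiomyocyte genes 9 rose and 0 fell in R1, with sums of 198, 197 and 221 CPM after CAWS against 152, 121 and 117. Their part in the rise of the endothelial genes was not tested.

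In R2, 3 genes rose and 0 fell, beside 10.3% of all tested genes (6.79% higher, 3.5% lower). Pecam1 went from 3.79, 5.29 and 3.53 CPM to 12.5, 13.8 and 9.70 (1.53 ± 0.32, adjusted p = 0.0032). The NK sum was 3.57, 4.82 and 3.35 CPM after CAWS against 2.53, 1.93 and 1.89 there, and 0 of its 3 tested genes passed. Gsn went from 349, 344 and 318 CPM to 527, 599 and 523 (0.71 ± 0.13, adjusted p = 0.00107). Neither Pecam1 nor Gsn overlapped between the groups. Fabp4 went from 6.23, 6.82 and 7.27 CPM to 14.5, 9.0 and 16.8 (0.98 ± 0.27, adjusted p = 0.0233). The call for Fabp4 was lost without any of naive R2 replicates 1, 2 and 3 or CAWS R2 replicates 1 and 3 (adjusted p from 0.0576 to 0.123). No cardiomyocyte gene of the 20 passed in R2 in edgeR's test, and their sums overlapped, at 292, 221 and 238 CPM in naive mice and 311, 223 and 262 after CAWS.

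In R3, 0 genes rose and 4 fell, beside 15% of all tested genes (6.7% higher, 8.29% lower). The 4 were the matrix genes Col1a1, Col1a2, Mgp and Postn. Col1a1 was at 1.02, 2.02 and 2.74 CPM after CAWS against 1.39, 55.1 and 3.51 in naive R3 (-3.37 ± 0.95, adjusted p = 0.0226), and the groups overlapped outside replicate 2. Col1a2 did not pass in DESeq2 (adjusted p = 0.0515), with its size factors in edgeR (0.0525) or in the older edgeR fit (0.074). With a block by replicate number over all groups Col1a2 did not pass either (0.0849). Neither Col1a2 nor Mgp passed with no filter on low counts (0.0997 and 0.0756). Without that library Col1a1 was at -0.28 ± 0.50 (adjusted p = 0.763), Col1a2 at 0.06 ± 0.52 (adjusted p = 0.956) and Mgp at 0.00 ± 0.46 (adjusted p = 1). That library was singled out for its high fibroblast genes, so the p-values without it follow a choice made on the same genes. Without it, none of the 4 calls was left, and 3 other fibroblast genes were higher after CAWS, beside 11.3% of all genes (4.96% higher). They were Dcn (1.20 ± 0.29, adjusted p = 0.00842), Lum (3.03 ± 0.70, adjusted p = 0.00827) and Gsn (0.50 ± 0.11, adjusted p = 0.0044). The wider fibroblast and matrix list did not rise as a set. Of its 34 tested genes 2 were higher and 5 lower in that fit, and 1 and 7 with all libraries. Its sum was 515 to 563 CPM in CAWS R3 against 1010 to 1360 in naive R3.

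The single values show what changed. Dcn was at 9.30, 14.8 and 15 CPM in CAWS R3, above naive R3 replicates 1 and 3 (5.10 and 6.35) and below replicate 2 (84.2). Lum was at 1.80, 2.54 and 1.87 CPM in CAWS R3, against 0.232, 5.61 and 0.265. The test of Dcn over all libraries gave -1.30 ± 0.66 (adjusted p = 0.198), so its direction was set by 1 library. Leaving out any of the 3 CAWS R3 libraries also brought the count in R3 to 0, and leaving out naive R3 replicate 1 brought it to 7.

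**Figure D5:**
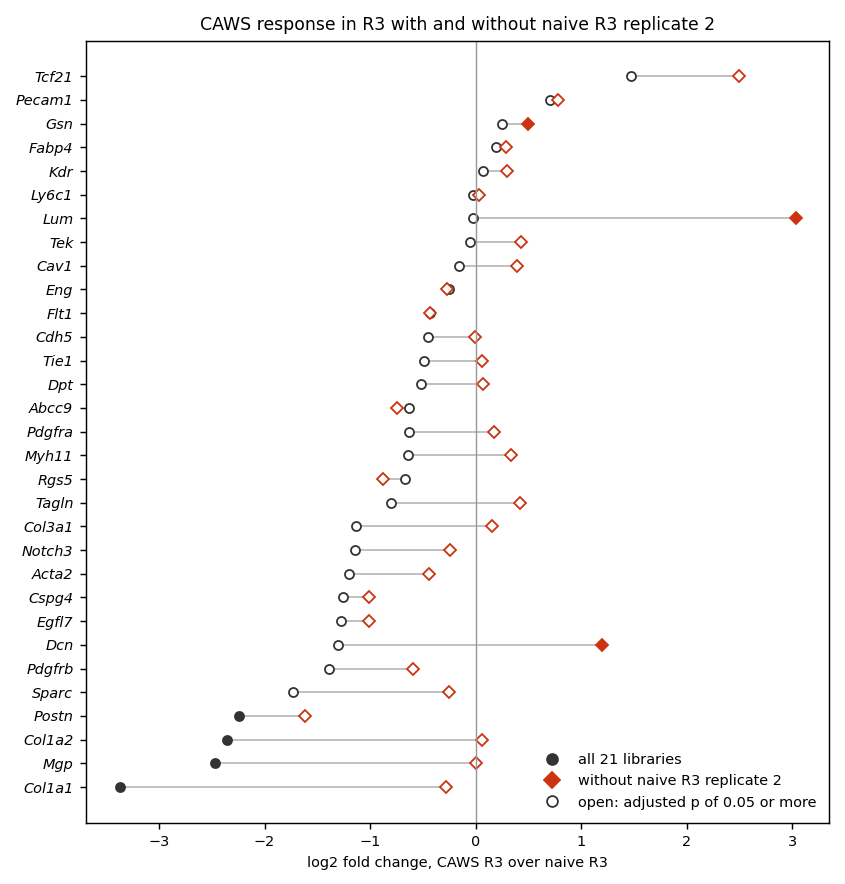
Log2 fold change, CAWS against naive in R3, of the 31 tested genes with all libraries (circles) and without naive R3 replicate 2 (diamonds), joined by a line for each gene, with filled symbols for an adjusted p under 0.05. Col1a1 goes from -3.37 to -0.28, Mgp from -2.47 to 0.00 and Dcn from -1.30 to 1.20.

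Postn was low in CAWS R3. It was at 0.312, 0.449 and 0.400 CPM there, against 3.73, 3.13 and 3.00 in CAWS R1 and 2.18, 1.36 and 2.87 in CAWS R2. The R3 values lay below all others, and the difference passed against R1 (-3.06 ± 0.66, adjusted p = 0.000877) and R2 (-2.42 ± 0.73, adjusted p = 0.0241). Over the same libraries Dcn was not lower, at 8.94, 10.6 and 7.21 CPM in CAWS R1 and 9.30, 14.8 and 15 in CAWS R3. Against naive R3, Postn had fallen by 2.24 ± 0.75 on the log2 scale (adjusted p = 0.0438), and without naive R3 replicate 2 the value was -1.62 ± 0.84 (adjusted p = 0.217). The call was also lost without naive R3 replicate 3 (adjusted p = 0.126).

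Among CAWS hearts 3 genes differed between R3 and R1, beside 29.4% of all tested genes. Besides Postn, Gsn was higher in R3, at 768, 738 and 688 CPM against 470, 480 and 481 (0.62 ± 0.13, adjusted p = 0.00109). Eng was lower, at 101, 94.9 and 108 CPM against 125, 118 and 127 (-0.29 ± 0.10, adjusted p = 0.0328). The call for Eng was lost without any 1 of CAWS R1 replicates 1 to 3 (adjusted p = 0.139, 0.0722 and 0.101), without CAWS R3 replicate 1 or 2 (0.142 and 0.145) and with no filter on low counts (0.149). Between R3 and R2 there were 2, Postn and Gsn (0.41 ± 0.13, adjusted p = 0.0366), beside 15.3% of all genes. That count was 0 without CAWS R2 replicate 1, CAWS R2 replicate 3, CAWS R3 replicate 1 or CAWS R3 replicate 2, and 1 without CAWS R3 replicate 3. Between R2 and R1 0 genes passed in edgeR's test, 0 had an unadjusted p under 0.05 and DESeq2 called 0, beside 3.77% of all genes.

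Whether the response to CAWS differed between populations was tested directly. The response of Pdgfrb in R3 minus that in R1 was -3.80 ± 0.78 (adjusted p = 0.00708, 95% normal interval -5.33 to -2.27). It was the 1 gene of the 31 that passed, beside 2.26% of all tested genes. Pdgfrb rose in R1, and in R3 it was at 1.17, 1.27 and 1.33 CPM after CAWS against 2.61, 6.01 and 1.12 in naive mice (-1.39 ± 0.50, adjusted p = 0.0636). Without naive R3 replicate 2 the difference between the responses was -3.00 ± 0.70 (adjusted p = 0.0233), beside 1.83% of all genes. With the pool as a replicate block 3 genes passed, adding Eng (-0.39 ± 0.12, adjusted p = 0.0418) and Cav1 (-1.67 ± 0.45, adjusted p = 0.0217). Of the 20 cardiomyocyte genes 7 had a lower response in R3 than in R1, and their part was not tested.

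The responses in R3 and R2 differed for 0 genes in edgeR's test, beside 2.33% of all genes, with 10 at an unadjusted p under 0.05 and 1 called by DESeq2. With the pool block Eng passed (-0.47 ± 0.12, adjusted p = 0.0139). For R2 against R1 the count was 0 in both tools, with 4 at an unadjusted p under 0.05, beside 0.0527% of all genes.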

How the data were processed

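Raw counts of reads per gene were deposited by the authors for 21 libraries, 3 in each of 7 groups. They were made with featureCounts on mm10, per the submitters' processing notes. The sources used here do not name the aligner, annotation, strand setting or versions. The 21 single-library files held the same counts as the combined table, and 0 other columns of per-sample values were present. RNA was taken with a column kit and made into TruSeq libraries, per the labels' protocols.

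Gene IDs were matched to RefSeq symbols of GRCm38.p6, and 25275 of 27179 had one. Genes were kept by filterByExpr (count minimum 10, total minimum 15), which left 13275. edgeR 4.0.16 in R 4.3.3 was used with TMM scaling (factors from 0.9093 to 1.065), a quasi-likelihood fit over all 7 groups with 14 residual degrees of freedom, two-sided tests, and Benjamini-Hochberg adjustment over all tested genes at 0.05. Standard errors are the log2 fold change divided by the square root of F. Alternatives were DESeq2 1.42.0, its size factors in edgeR, no filter on low counts, an older edgeR fit and only the groups compared. Others were a replicate block, by pool within treatment or by number over all groups, and leaving out libraries. The scripts were tested on simulated data. Floors of 3 counts cover counting error only, and reads carried no molecular identifiers. Intervals at 95% were built from these standard errors, which include the spread between libraries. Values beside ± are SE for log2 fold changes and SD for CPM.

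The replicate number was read as the pool within a treatment, since each pool was divided into R1 to R3. No label states that the number is the pool. Over 8677 genes, deviations of same-numbered libraries within a treatment correlated at 0.14 to 0.59 in 18 pairs. In the 45 other pairs (across treatments or with the monocytes) they correlated at -0.24 to 0.65. The main fit had no replicate block. A block by replicate number over all groups was run only as an alternative, for CAWS against naive and for the monocyte comparisons. The p-values of the main fit measure the spread between libraries of a group, each from its own pool of mice. Populations of 1 treatment share pools, and only the fit with the pool as a block takes that into account. All 34 members could be named. Values per library are given for the members on which a result turns. The members and lists were chosen with earlier results of these data known.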

Additional observations from a re-analysis of the deposited data

Results flagged for a closer look

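The response of Pdgfrb to CAWS differed between R3 and R1 by a direct test of the difference, at -3.80 on the log2 scale. Pdgfrb was at 0.891, 0.0621 and 0.401 CPM in naive R1 and 2.58, 2.73 and 2.54 in CAWS R1, and at 2.61, 6.01 and 1.12 in naive R3 and 1.17, 1.27 and 1.33 in CAWS R3. The value stayed between -4.83 and -3.00 when any 1 library of the 4 groups was left out.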

How the results depend on the processing

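The counts of members past the test depended on single libraries and on the fit. For CAWS against naive in R3 (4 genes) the count was 2 with no filter on low counts and 0 with only the groups compared, and it ran from 0 to 7 when 1 library was left out. These ranges cover only libraries of the groups compared. Over the other comparisons, leaving out 1 library gave 4 to 6 in R1 and 2 to 3 in R2 for CAWS against naive, 0 to 3 for naive R2 against R1, 10 to 20 for naive R3 against R1, 1 to 12 for naive R3 against R2, 2 to 3 for CAWS R3 against R1 and 0 to 2 for CAWS R3 against R2. For the differences of response it gave 1 to 2 (R3 minus R1) and 0 to 1 (R3 minus R2). With only the groups compared the count was 6 for naive R2 against R1, 9 for naive R3 against R1, 5 for naive R3 against R2 and 5 for CAWS R3 against R2. The older edgeR fit gave 1 for naive R2 against R1. Leaving naive R3 replicate 2 out of every fit gave 4 for that comparison, and leaving out CAWS R2 replicate 1 as well gave 5. Without both libraries, which were chosen after seeing the data, the counts were 10 for naive R3 against R1 and 1 for naive R3 against R2. DESeq2 called 3 genes for the response in R3 minus R1 and 1 for R3 minus R2. The replicate block by pool within treatment gave 3 and 1 for these, and other calls it changed are given beside the results. Apart from the fit without naive R3 replicate 2, the share of all tested genes was not computed for these alternatives. Whether the whole gene set moved with the members there was not tested.

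Some fold changes no longer had the same sign without naive R3 replicate 2 and without both libraries. For CAWS in R3, Dcn was at 1.20 and 1.25, Col1a2 at 0.06 and 0.11, and Mgp at 0.00 and 0.05. Dcn passed in the opposite direction (edgeR adjusted p = 0.00842 and 0.00614). The libraries left out were chosen after seeing the data, so these p-values follow that choice. Col1a2 and Mgp did not pass, so no opposite change was shown for them. For naive R3 against R1, Dcn was at -0.37 and -0.38 and did not pass (adjusted p = 0.458 and 0.433). Leaving out 1 library gave from -1.81 to 1.20 for Dcn, -2.85 to 0.06 for Col1a2 and -2.96 to 0.00 for Mgp in the first comparison, and -0.37 to 2.64 for Dcn in the second. The cause was not tested. Single-gene values under an alternative were tallied only for genes past the main test of a comparison and a few others reported for it. Of these values, 524 kept their direction and side of the threshold, 143 no longer passed and 6 newly passed. For 8 the sign was not kept, whether or not the value passed. Other members that newly passed, such as those added by the pool block, are not in this tally. Most members lay under 10 CPM, which limits the precision.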
